A study of Mus musculus with 8 samples.

Results

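Ascl2, Birc5 and Top2a were the members chosen by gene name from the authors' deposited table of colon tumours, 3 of the 1428 genes it lists. Ascl2 encodes a basic helix-loop-helix transcription factor of intestinal stem cells, whereas Birc5 and Top2a encode proteins that dividing cells need to separate their chromosomes. They were set beside Hnf4a, a nuclear receptor of differentiated intestinal epithelium. RNA sequencing had been done on colon tumours of C57BL/6N mice, with 4 libraries labelled wild type (WT) and 4 labelled miR-29ab1Vilin-KO (KO). The design text describes mice whose intestinal epithelial cells lack miR-29ab1, and the villin promoter named in the label is active in that epithelium. It describes tumours raised with azoxymethane, a carcinogen, and dextran sodium sulfate, which damages the colon lining. Age, sex, the alleles carried by the WT mice and whether tumours were pooled are not given in the sources used here. Nor do the labels state that each library came from its own mouse, so the spread between libraries may be technical.

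The crypts of the colon are renewed by stem cells at their base, whose identity depends on Wnt signalling and on ASCL2, itself a Wnt target. Their daughters divide several times, then stop and mature as they move towards the surface, where HNF4A and related factors maintain genes of absorptive cells. BIRC5 (survivin) belongs to the chromosomal passenger complex, which corrects the attachment of chromosomes to the spindle, and is also classed with the inhibitors of apoptosis. TOP2A cuts and rejoins both strands of DNA to untangle sister chromosomes, and both genes are switched on late in the cell cycle.

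Every gene in the table has an unadjusted p below 0.05 for KO against WT, so the listing of the 3 genes is itself a result of that contrast, and their differences are given below as a description. The values are normalized counts, that is, reads per gene divided by 1 size factor per library. The listed genes held between 1202677 and 2180787 reads per library, which is a partial sum and not the depth. No row for the deleted microRNA genes was among the listed genes, so the KO label was not checked on its target. Of 10 genes of general epithelial content none was listed, so the labelled tissue was not checked on them. The 7 listed colonocyte genes summed to between 20745 and 27574 normalized counts in WT and between 30169 and 84070.0 in KO. All 7 were listed as higher in KO, so these sums are a description and no check of the tissue label. KO replicate 4 stood apart in these genes, and results that rest on it are given with and without it. In bulk tumours, fewer cells of a type and less RNA per cell cannot be told apart.

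The microRNAs deleted in the KO epithelium and the promoters of the 3 genes are shown first, because they are the sequences through which a direct effect of miR-29 on the transcripts, or a shared pattern of transcription, would be looked for. The mature miR-29a and miR-29b strands are given from RefSeq, GRCm38.p6, at chr6:31062673-31062694 and chr6:31063025-31063047, both on the minus strand. Capitals mark the seed, bases 2 to 8, which the 2 share.
miR-29a-3p: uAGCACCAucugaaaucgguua
miR-29b-3p: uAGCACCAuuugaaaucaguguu
The DNA match to this seed is TGGTGCT. In the longest annotated 3′ untranslated region of each gene (GENCODE M21), it was found 0 times in the 529 bases of Ascl2, 0 times in the 2936 bases of Birc5 and 0 times in the 511 bases of Top2a. Hnf4a held 1 match in 2819 bases. Of 21020 protein-coding genes searched in the same way, 13.1% held at least 1, with a median length of 961 bases.

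RefSeq promoters, 250 bases before to 50 after the annotated start in GRCm38.p6, were found for 3 of the 3 genes. They lie at chr7:142969215-142969514 on the minus strand (Ascl2), chr11:117848987-117849286 on the plus strand (Birc5) and chr11:99024140-99024439 on the minus strand (Top2a). Capitals mark matches, on either strand, to 6 short motifs. The first is the CCAAT box, spelled CCAAT, which is known from the promoters of many genes of the late cell cycle. A further element of such promoters is the CHR, spelled TTTGAA, and a palindrome that resembles it, spelled TTCGAA, was searched as well. E-boxes are the kind of site that helix-loop-helix factors bind, and 1 form of them, spelled CAGCTG, was searched. Other forms of the E-box were not marked. The GC box, spelled GGGCGG, is common in promoters that lie in CpG islands. The core of the site of the Wnt effectors TCF and LEF was searched as CTTTGAT. None of the marked matches overlapped another.
Ascl2: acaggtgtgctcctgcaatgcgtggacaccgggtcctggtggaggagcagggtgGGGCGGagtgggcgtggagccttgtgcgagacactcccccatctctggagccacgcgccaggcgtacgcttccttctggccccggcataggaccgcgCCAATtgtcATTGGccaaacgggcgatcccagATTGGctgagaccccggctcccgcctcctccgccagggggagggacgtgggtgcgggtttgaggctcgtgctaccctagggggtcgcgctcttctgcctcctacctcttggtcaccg
Birc5: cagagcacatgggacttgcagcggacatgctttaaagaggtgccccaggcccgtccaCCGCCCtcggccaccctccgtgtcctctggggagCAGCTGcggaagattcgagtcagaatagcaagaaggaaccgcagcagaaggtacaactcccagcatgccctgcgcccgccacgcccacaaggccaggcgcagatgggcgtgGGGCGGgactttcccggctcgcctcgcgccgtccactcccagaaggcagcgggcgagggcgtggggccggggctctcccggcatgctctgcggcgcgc
Top2a: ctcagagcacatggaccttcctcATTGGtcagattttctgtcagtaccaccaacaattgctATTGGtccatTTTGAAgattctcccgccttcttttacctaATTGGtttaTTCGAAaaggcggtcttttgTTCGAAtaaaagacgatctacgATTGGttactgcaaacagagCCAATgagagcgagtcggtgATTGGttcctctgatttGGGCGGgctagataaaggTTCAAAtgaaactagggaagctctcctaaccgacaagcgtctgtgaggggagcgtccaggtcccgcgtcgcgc
The 3 promoters differed in what they held. The Top2a window had 6 CCAAT boxes, 2 CHR elements and 2 of the palindromes, whereas the Birc5 window had none of these 3 motifs. At least 6 CCAAT boxes stood in 0.0791% of 32851 promoters of this length, at least 2 CHR elements in 2.31%, and at least 2 of the palindromes in 0.0304%. The Ascl2 window had 3 CCAAT boxes, at positions -99, -90 and -67 from the start, against 3.37% of promoters with at least 3. Birc5 had the 1 E-box of the form CAGCTG in the 3 windows, a form that 16.3% of promoters held at least once. GC boxes numbered 2 in Birc5, 1 in Ascl2 and 1 in Top2a, against 35.7% of promoters with at least 1 and 19.5% with at least 2. The TCF/LEF core was found in 3.73% of promoters and in none of the 3. The windows of Ascl2 and Birc5 were rich in G and C, at 67.0% and 68.7%, against a median of 52.7% over all promoters and 47.7% in Top2a.

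**Figure D1:**
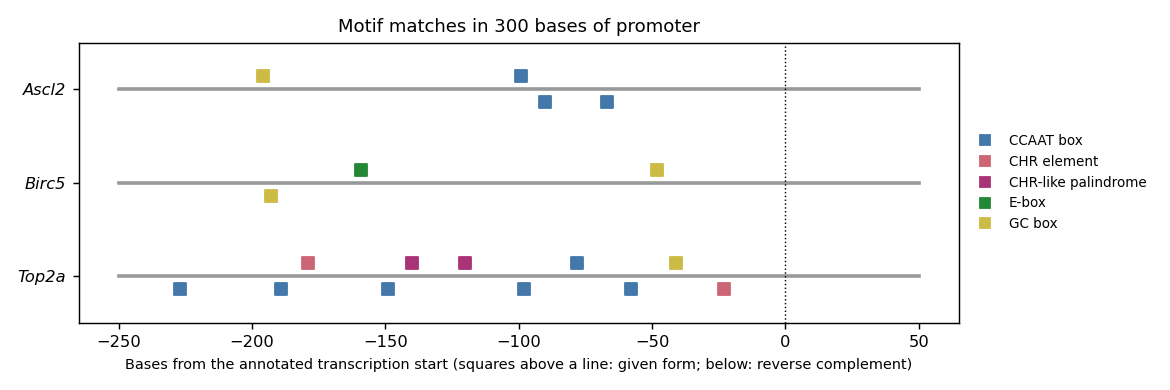
Motif matches in the 3 promoter windows, plotted by distance in bases from the annotated start (dotted line); squares above a line are matches in the given form and squares below it in the reverse complement. Top2a carried 6 CCAAT boxes spread from -227 to -58, Ascl2 3 within the stretch from -99 to -67, and Birc5 none.

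Ascl2, the stem cell factor, was lower on average in KO tumours. Its normalized counts in WT replicates 1 to 4 were 1070.0, 856, 1096 and 1219. In KO replicates 1 to 4 they were 771, 867, 787 and 644. The groups overlapped by 1 library on each side, since KO replicate 2 lay just above WT replicate 2. The means were 1060.3 ± 151 in WT and 767 ± 92.3 in KO (SD, n = 4 each), so KO stood at 72.4% of WT. On the log2 scale the difference was -0.47 in the authors' deposited table, with p = 0.0137 unadjusted and 0.625 adjusted, which does not pass 0.05. Fitted anew with DESeq2 from the reads behind these values, its standard error was 0.17. In the table the gene (MGP_C57BL6NJ_G0033759) lies on chromosome 7 from 153610334 to 153612776, minus strand, in the coordinates of the C57BL/6NJ annotation.

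Birc5, the chromosomal passenger, varied most of the 3 among the KO libraries. WT replicates 1 to 4 held 738, 998, 825 and 1089 normalized counts. KO replicates 1 to 4 held 508, 810.2, 703 and 541. WT replicate 1 fell below KO replicate 2, and the other 3 WT libraries lay above every KO library. The means were 912 ± 159 in WT and 641 ± 142 in KO (SD, n = 4 each), 70.2% of WT. The authors' deposited table puts the log2 difference at -0.51, with p = 0.0319 unadjusted and 0.686 adjusted, and its DESeq2 standard error was 0.23. The gene (MGP_C57BL6NJ_G0019848) lies on chromosome 11 from 125859166 to 125865706, plus strand, in the same coordinates.

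Top2a, the topoisomerase of dividing cells, had the most reads of the 3. WT replicates 1 to 4 held 4149.7, 6197, 5615 and 5391 normalized counts. KO replicates 1 to 4 held 3823, 4695, 4257 and 3227. WT replicate 1 was again the low WT library, below KO replicates 2 and 3. The means were 5338 ± 862 in WT and 4000.3 ± 627 in KO (SD, n = 4 each), 74.9% of WT. This was a log2 difference of -0.42 in the authors' deposited table (p = 0.0442 unadjusted, 0.706 adjusted), and its DESeq2 standard error was 0.19. The gene (MGP_C57BL6NJ_G0019473) lies on chromosome 11 from 104756654 to 104791916, minus strand.

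**Figure D2:**
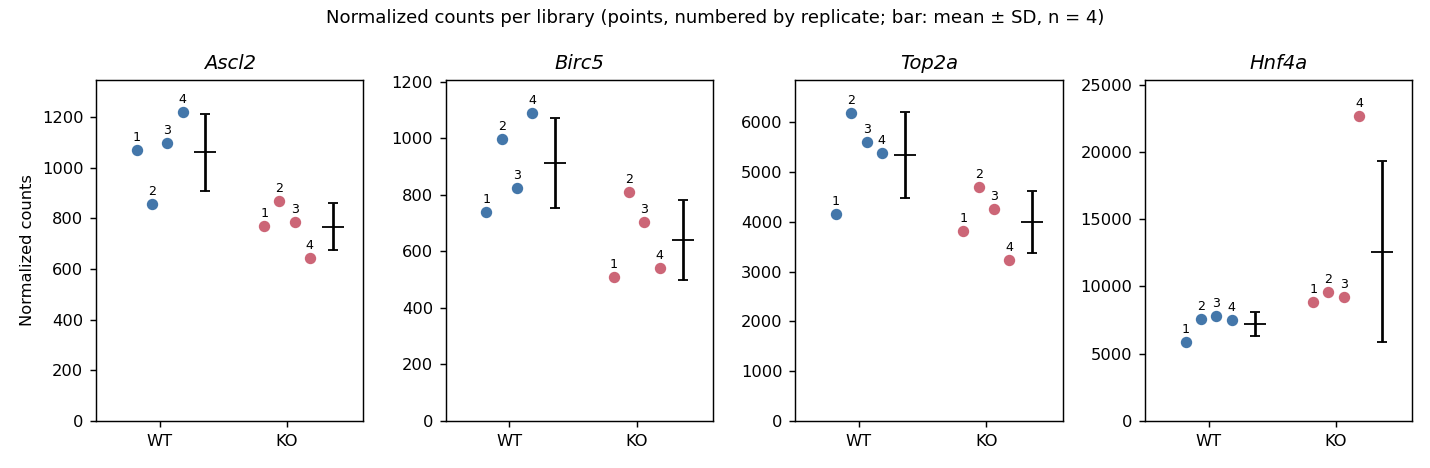
Normalized counts of Ascl2, Birc5, Top2a and Hnf4a in each library (points, numbered by replicate; WT blue, KO red) with the mean and SD of 4 libraries (black). The groups overlap in the first 3 genes, and KO replicate 4, at 22661, stands far above the other KO libraries in Hnf4a.

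All 3 genes were thus listed on the lower side with overlapping groups. By the authors' deposited table, a share of 3.00% of the 19985 genes behind its adjustment were listed lower in KO and 0.0400% passed an adjusted p of 0.05; none of the 3 did. Among the 599 genes listed lower, the groups did not overlap in 49.4%, and they overlapped in each of the 3. Their differences were small for the list: the median log2 fold change of the 599 genes was -0.88, and the sizes for Top2a, Ascl2 and Birc5 exceeded those of 13.4%, 20.7% and 25.2% of them. By mean level they lay high, above 97.0% of those genes for Top2a, 78.8% for Ascl2 and 75.8% for Birc5. Counting noise was a minor part of their spread. With 1100, 833, 1084 and 1205 reads in the WT libraries, counting alone would give Ascl2 a coefficient of variation of 3.08%, against 14.2% between the WT libraries. For Birc5 in KO it would give 3.90% against 22.1%, and for Top2a in KO 1.56% against 15.7%. Per kilobase of the gene length in the table, the level of Ascl2 was 658 ± 93.7 normalized counts in WT (SD, n = 4) and that of Top2a 592 ± 95.6, which did not differ beyond their spread. Birc5 was lower than both, at 268 ± 46.8.

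With edgeR's quasi-likelihood test on the same reads, each of the 3 genes lay below an unadjusted p of 0.05 on the lower side, at 0.0159 for Ascl2, 0.0311 for Birc5 and 0.0378 for Top2a. Of all 1428 listed genes, 32.5% lay there (464 genes, with 648 on the higher side, or 556 and 334 under TMM scaling). That share also counts the 829 genes listed higher, whereas the 3 genes come from the 599 listed lower. Since the reads are those behind the listing, this outcome was largely fixed by it. The adjusted p of edgeR was 0.867 for each of the 3 genes. Leaving out 1 library left the log2 fold change negative in all 8 refits, between -0.56 and -0.39 for Ascl2, -0.64 and -0.41 for Birc5, and -0.52 and -0.33 for Top2a. Ascl2 stayed below an unadjusted p of 0.05 in each of these 8 refits. It was the 1 gene of the 3 to do so without WT replicate 2, without WT replicate 4, without KO replicate 1 or without KO replicate 4. In the 8 refits, from 254 (without WT replicate 4) to 412 (without WT replicate 3) of the 1428 listed genes lay there on the lower side. Ascl2 had the smallest p of the 3 with all libraries, so this too follows largely from the listing. For Top2a the unadjusted p reached 0.105 without WT replicate 2, its highest library.

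**Figure D3:**
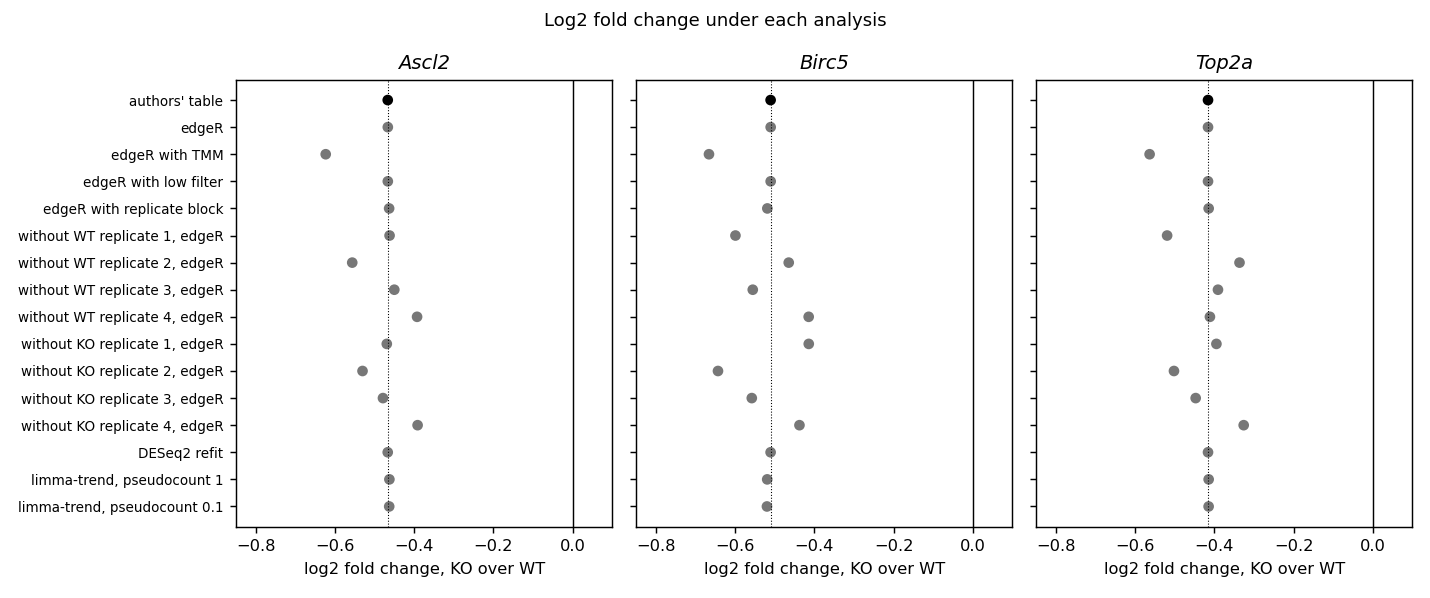
Log2 fold change (KO over WT) of each gene in the authors' deposited table (black) and under 15 refits of the recovered reads (grey); the dotted line marks the deposited value and the solid line 0. Every point lies below 0, and the lowest for each gene comes from rescaling with TMM factors, at -0.62 for Ascl2, -0.67 for Birc5 and -0.56 for Top2a. These factors were computed from the listed genes alone, all of them listed for a difference.

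Whether the 3 genes differed from each other in size of change was tested with the log2 ratio of each pair in each library. Their listing does not fix this ratio. Because all 3 were listed on the lower side, it can still favour changes of similar size. The Ascl2 to Top2a ratio averaged -2.33 ± 0.39 in WT and -2.38 ± 0.07 in KO (SD, n = 4 each), a difference of -0.05. Its WT values ran from -2.85 to -1.95 and spanned the whole KO range, from -2.44 to -2.31. The Ascl2 to Birc5 ratio averaged 0.22 ± 0.33 in WT and 0.28 ± 0.22 in KO. The Birc5 to Top2a ratio averaged -2.55 ± 0.20 in WT and -2.65 ± 0.17 in KO, a difference of -0.10. None of the 3 differences was larger than the spread between libraries: by the exact permutation test over libraries, two-sided, p was 0.771 for Ascl2 to Birc5, 0.857 for Ascl2 to Top2a and 0.457 for Birc5 to Top2a, and 0.857 for each after Benjamini-Hochberg adjustment over 3 tests. The smallest p that 4 against 4 libraries allow is 0.0286. The difference for Ascl2 to Top2a was 0.08 without WT replicate 1 and 0.01 without WT replicate 4, and that for Ascl2 to Birc5, 0.06 with all libraries, was -0.09 without WT replicate 2 and -0.05 without KO replicate 1.

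Within groups, the 3 pairs of genes were compared by their deviations from the group means. On the log2 scale (normalized count plus 1), those of Birc5 and Top2a had the same sign in 7 of 8 libraries, with a Pearson r of 0.77 and a Spearman rho of 0.76. Ascl2 and Birc5 shared their sign in 4 of 8 libraries (r = 0.36, rho = 0.62), and Ascl2 and Top2a in 5 of 8 (r = 0.20, rho = 0.24). The differences between these coefficients were not tested. WT replicate 2 separated the genes most: it was the highest WT library for Top2a and the lowest for Ascl2. KO replicate 2 was the highest KO library for all 3.

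Hnf4a, the factor of differentiated epithelium, was listed in the opposite direction. Its WT replicates 1 to 4 held 5904, 7600.2, 7820.1 and 7532 normalized counts. KO replicates 1 to 4 held 8832, 9590.1, 9197 and 22661. The groups did not overlap, as in 41.3% of the 829 genes listed higher, and KO replicate 4 lay far from the rest. The means were 7214 ± 882 in WT and 12570.0 ± 6735 in KO (SD, n = 4 each). Computed by DESeq2 in the authors' deposited table, the log2 difference was 0.80, with an adjusted p of 0.649. The ratio of the KO to the WT mean was 1.74, or 1.28 when KO replicate 4 was left out.

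Per 100 normalized counts of Hnf4a, Top2a stood at 73.8 ± 5.20 in WT and 38.2 ± 16.1 in KO (SD, n = 4 each). The KO values were 43.3, 49.0, 46.3 and, in replicate 4, 14.2. For Ascl2 the same quantity was 14.9 ± 2.95 in WT and 7.29 ± 2.97 in KO, with 2.84 in KO replicate 4. For Birc5 it was 12.7 ± 1.62 in WT and 6.06 ± 2.69 in KO, with 2.39 in KO replicate 4. The separation of the groups in these ratios follows from the listing of Hnf4a on one side and the 3 genes on the other.

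A correlation over all 8 libraries would carry that same group difference, so the relation to Hnf4a was taken within groups, from deviations from the group means. Over the 8 libraries Pearson's r was -0.56 for Ascl2, -0.18 for Birc5 and -0.34 for Top2a, and Spearman's rho was -0.12, 0.14 and 0.02. None passed the exact permutation test within groups, two-sided. For r, p was 0.234, 0.905 and 0.512, or 0.703, 0.905 and 0.768 after Benjamini-Hochberg adjustment over the 3 relations. For rho, p was 0.792, 0.833 and 0.974, and 0.974 for each after adjustment. These coefficients lay between the quartiles of the genes listed lower: over 290 such protein-coding genes with a mean of at least 100 normalized counts, the median r to Hnf4a was -0.41 and the quartiles were -0.67 and -0.11.

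The negative sign rested on KO replicate 4, where Hnf4a was highest and Ascl2 and Top2a were lowest of the 4 KO libraries. This library also added to the listed differences of Hnf4a and of the 3 genes, so the coefficients over 8 libraries are not free of the listing. Without that library r was 0.01 for Ascl2, 0.62 for Birc5 and 0.92 for Top2a, with adjusted exact permutation p-values of 0.993, 0.156 and 0.0625. Over the other alternatives with a test, the adjusted p for Top2a ran up to 0.965. With the 2 libraries farthest from the median in Hnf4a left out (KO replicates 1 and 4), r was -0.04, 0.67 and 0.93. In the other libraries Top2a and Hnf4a were low or high together: WT replicate 1 was the lowest WT library in both, and KO replicates 1 to 3 had the same order in both. Over the 290 genes listed lower the median r without KO replicate 4 was 0.11, with quartiles of -0.15 and 0.38.

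**Figure D4:**
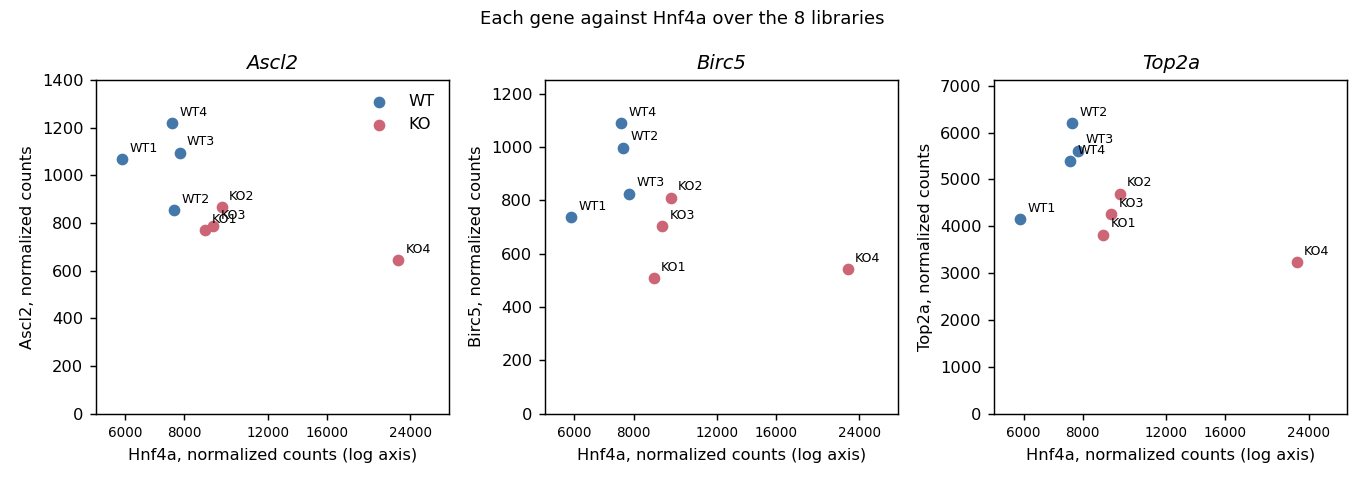
Normalized counts of Ascl2, Birc5 and Top2a against those of Hnf4a (log axis) in the 8 libraries, WT in blue and KO in red. KO replicate 4 lies alone at the right at 22661 for Hnf4a; among the other KO libraries the point with the highest Hnf4a, KO replicate 2, is also the highest in each of the 3 genes.

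Few other members of the gene lists for the same processes were listed. These lists do not hold every such gene. Kif15, Knstrn and Ube2s, which were listed lower and are named below for their pattern, are not on the mitosis list. Of 50 genes of mitosis and chromosome segregation, 3 were listed, all lower, against 3.00% of all genes. Birc5 and Top2a were chosen from the listed genes and count by that choice; of the other 48 genes, 1 was listed lower (2.08%). This was Mad2l1, a spindle checkpoint protein, at 1312 ± 225 normalized counts in WT and 882 ± 128 in KO (SD, n = 4 each). Its WT libraries held 1135, 1620.1, 1340 and 1154 and its KO libraries 846, 1006, 956 and 718, so its groups did not overlap. Its log2 difference was -0.57 (adjusted p = 0.470), both from the authors' deposited table. Below an unadjusted p of 0.05 in edgeR, the list had 3 genes on the lower side with all libraries and 1, Mad2l1, without KO replicate 4. Of all 1428 listed genes, 464 lay there with all libraries and 356 without KO replicate 4. The other 47 genes of the mitosis list were not listed. Among them were the proliferation marker Mki67, the kinases Cdk1, Plk1 and Aurkb, and the passenger partners Incenp and Cdca8. Of 35 genes of DNA replication and S phase, and of 19 cell cycle inhibitors and E2F partners, 0 were listed.

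Of 29 stem cell and Wnt genes, Ascl2, chosen from the listed genes, was the 1 listed. Of the other 28, among them Lgr5, Axin2 and Myc, 0 were listed. Of 17 intestinal helix-loop-helix and Notch genes, 3 were listed: Ascl2 lower, and 2 higher, the enteroendocrine factor Neurod1 and the Notch ligand Dll1. The 2 were 12.5% of the 16 genes other than Ascl2, against 4.15% of all genes. In edgeR 1 gene of the list lay below an unadjusted p of 0.05 on the higher side, and 0 without KO replicate 4. Of all 1428 listed genes, 648 lay there with all libraries and 385 without KO replicate 4. Neurod1 held 5.78, 16.1, 8.90 and, in replicate 4, 91.0 normalized counts in KO, and at most 13.1 in WT. Dll1 stood at 162 ± 51.9 in WT and 270 ± 93.9 in KO (SD, n = 4 each). Its groups overlapped, with WT replicate 2 at 237 and KO replicates 1 and 3 at 211 and 181. Of the 5 topoisomerase genes other than Top2a, 0 were listed. Of 10 genes of the inhibitor of apoptosis family 2 were listed, Birc5 lower and Naip2, a sensor of bacterial proteins, higher, at 1045 ± 179 in WT and 1391 ± 99.8 in KO. Naip2 was 1 of the 9 genes other than Birc5 (11.1%, against 4.15% of all genes listed higher).

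Of 26 colonocyte differentiation genes 7 were listed, all higher (26.9%, against 4.15% of all genes), with a median log2 fold change of 0.81 against 1.00 over all 829 genes listed higher. Without Hnf4a, which was chosen from the listed genes, they were 6 of 25 (24%). They included the factors Hnf4a, Klf4 and Klf5 and the brush border genes Cdhr5, Cdhr2 and Mep1a. In 6 of the 7, KO replicate 4 exceeded the other KO libraries. Without it, 3 of the 7 stayed below an unadjusted p of 0.05 on the higher side in the edgeR refit, against 4 with all libraries. Of all 1428 listed genes, 648 lay there with all libraries and 385 without KO replicate 4. Klf5 went the other way in that library: its KO replicates held 5644, 4436, 5363 and, in replicate 4, 4308 normalized counts.

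**Figure D5:**
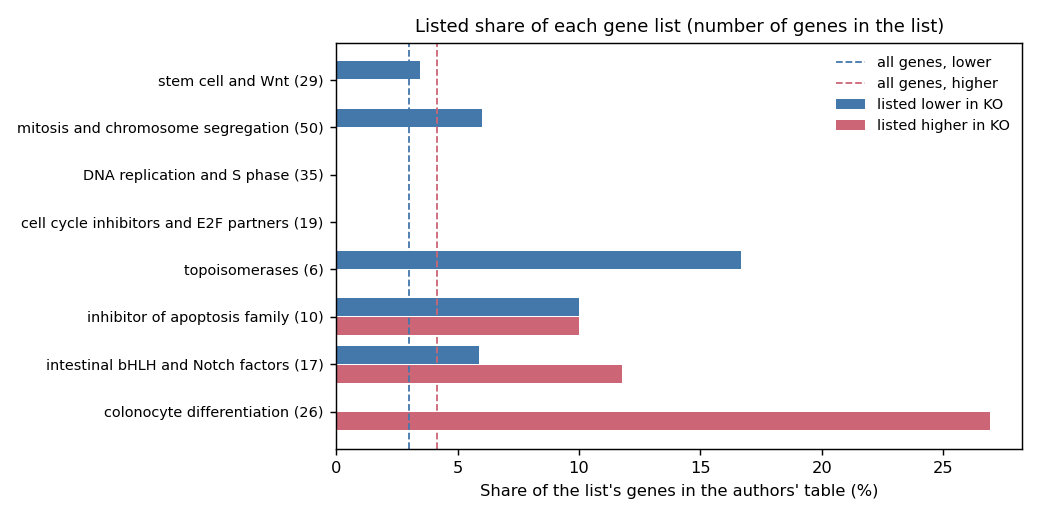
Share of each gene list (number of genes in parentheses) found in the authors' deposited table as lower (blue) or higher (red) in KO; dashed lines mark the shares of all genes, 3.00% and 4.15%. The mitosis bar, at 6.00%, includes Birc5 and Top2a and would be 2.08% without them; the S phase list is at 0 and the colonocyte list at 26.9% on the higher side.

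Some markers of other cell types were also listed, none past an adjusted p of 0.05. Of 16 B and plasma cell genes 12 were listed, all higher (75%, against 4.15% of all genes), and summed to between 139 and 324 normalized counts in WT and between 261 and 3540.1 in KO. In 11 of these 12 the top KO library was replicate 4, and 6 of the 12 were at 0 in at least 1 library. In edgeR 10 of these 12 lay below an unadjusted p of 0.05 on the higher side, and 7 without KO replicate 4. Of all 1428 listed genes, 648 lay there with all libraries and 385 without KO replicate 4. Of 15 T and NK cell genes 3 were listed higher (20%), with sums from 59.3 to 78.1 in WT and from 127 to 159 in KO, and Cd8b1 was at 0 in WT replicates 1 to 3 and in KO replicate 2. Of 14 fibroblast and stroma genes 3 were listed higher (21.4%), with sums from 105 to 180.0 in WT and from 191 to 292 in KO. Of 11 myeloid genes Mpo was the 1 listed, lower (9.09%, against 3.00% of all genes), at 0 in all 4 KO libraries. It was also at 0 in WT replicates 2 and 3, and held 2.92 and 23.3 normalized counts in WT replicates 1 and 4. No goblet cell gene of 9 was listed. The part of these cells in the differences of Ascl2, Birc5 and Top2a was not tested.

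The listed genes with the most similar pattern were sought among 743 protein-coding genes with a mean of at least 100 normalized counts, by Pearson's r of the within-group deviations over 8 libraries. For Top2a the first was Kif15, a spindle kinesin, with r = 0.97, followed by Polr3gl, a subunit of RNA polymerase III (r = 0.93), and Knstrn, a kinetochore protein (r = 0.89). Kif15 averaged 619 normalized counts in WT and 444 in KO, and Knstrn 681 and 511, by the means in the authors' deposited table. For Birc5 the first 3 were Carhsp1 (r = 0.96), Nabp1 (r = 0.93), which binds single-stranded DNA, and Rpl22l1 (r = 0.92), a ribosomal protein paralogue. For Ascl2 they were Ube2s (r = 0.96), a ubiquitin-conjugating enzyme of the anaphase-promoting complex, Fbl (r = 0.93), the nucleolar methyltransferase fibrillarin, and Ppp1r14b (r = 0.92), a phosphatase inhibitor. Each of these 9 genes was listed lower in KO, as were 290 of the 743 genes searched. The coefficients include KO replicate 4, the lowest KO library for Ascl2 and Top2a, so they are not free of the listing. Coefficients of at least 0.9 were reached by 5 genes for Ascl2, 4 for Birc5 and 2 for Top2a; with 8 points and 743 genes such values are a description only, and the points share libraries and size factors.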

How the data were processed

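Per the labels' protocols, TRIzol was used to extract total RNA, and the library kit marks strand. HISAT2, DESeq2 and the build GRCh38, a human one, are named in the submitters' processing notes without versions; the gene identifiers are of the mouse C57BL/6NJ annotation. The counting of reads, with its use of strand, is not stated in these sources.

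The authors' deposited table gives, per the file headers, a normalized signal for each of 8 libraries, group means, a log2 fold change, p-values and a gene length. The signal columns held gene counts divided by a size factor: a single factor per library brought 100% of values within 0.001 of a whole number. Groups and replicate numbers came from the sample titles. The number of genes behind the authors' adjusted p-values, 19985, was worked out from how adjusted and unadjusted p-values relate at each rank.

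The deposited fold changes and p-values were used as the main description. Further fits to the recovered reads used, in R 4.3.3, limma 3.58.1 (log2 of normalized count plus 1 or 0.1), DESeq2 1.42.0 and the quasi-likelihood test of edgeR 4.0.16, with Benjamini-Hochberg adjustment over 19985 genes, unlisted genes counted as larger p-values. Spread in these refits is estimated from genes listed for their difference. On simulated data of 1428 genes the quasi-likelihood step was tested with 4 against 4 libraries. It called 73.1% of 93 genes changed 2-fold, 96.3% of 107 changed 4-fold and 1 of 1228 unchanged. No smaller change was simulated, such as those of Ascl2, Birc5 and Top2a, where KO stood at 72.4%, 70.2% and 74.9% of WT. The simulation held 1428 genes and the refits were adjusted over 19985, so these rates need not hold for the refits. Ratios and relations were tested exactly over libraries. The alternatives were TMM scaling, a minimum mean of 10, pseudocounts, a replicate block and leaving out each library. TMM factors were computed from the 1428 listed genes and their partial sums of reads, since other genes were not available.

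Genes were named by rule: the 3 genes and Hnf4a, for each of the 3 the 3 genes of most similar pattern, and listed members of 14 gene lists (up to 6 by mean). Unlisted members, chosen as examples, were named outside the rule. All 264 list symbols were found in RefSeq. The members and lists were chosen with earlier results of these data known.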

Additional observations from a re-analysis of the deposited data

Results flagged for a closer look

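In groups of 4 libraries, the highest or lowest value was compared with its nearest neighbour, as a share of the group's range. Of 50 such groups 9 exceeded the critical value of Dixon's test, where chance gives about 1 in 20 for a single group. The groups share libraries and hold genes of similar pattern, and most of the 9 fell on KO replicate 4. The count is therefore a description.

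In KO, replicate 4 was the library that stood apart in Hnf4a (22661 normalized counts, the next being 9590.1), Cdhr2 (15273), Cdhr5 (18826), Klf4 (18058), Mep1a (4431) and Neurod1 (91.0), each high, and in Ppp1r14b, which was low at 565. In WT, replicate 1 was low in Hnf4a at 5904. The log2 ratio of Birc5 to Top2a was low in KO replicate 1, at -2.91, the next being -2.60. None of the single-gene values of Ascl2, Birc5 and Top2a stood apart in this way.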

How the results depend on the processing

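The log2 fold changes of Ascl2, Birc5 and Top2a kept their sign, and their adjusted p stayed above 0.05, in each of the 15 refits, which include TMM scaling (-0.62, -0.67 and -0.56). TMM factors, computed from the listed genes alone, moved the median of all listed genes from 0.48 to 0.32. They moved the edgeR calls at an unadjusted p below 0.05 from 464 lower and 648 higher to 556 and 334. These calls, 464 and 648, numbered 235 and 324 with a replicate block and from 254 (without WT replicate 4) to 412 (without WT replicate 3) on the lower side without 1 library; at an adjusted p below 0.05, edgeR called 0 listed genes and DESeq2 37. Without 1 library the number of the 3 genes below an unadjusted p of 0.05 ran from 1 to 3, and the log2 fold changes from -0.56 to -0.39 (Ascl2), -0.64 to -0.41 (Birc5) and -0.52 to -0.33 (Top2a). The differences in log2 ratio ran from -0.091 to 0.16 (Ascl2 to Birc5), -0.22 to 0.076 (Ascl2 to Top2a) and -0.18 to -0.019 (Birc5 to Top2a). The within-group r to Hnf4a ran from -0.71 to 0.0054 (Ascl2), -0.46 to 0.62 (Birc5) and -0.76 to 0.92 (Top2a), the upper ends all without KO replicate 4; the cause was not tested.

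In edgeR refits without KO replicate 4, an alternative chosen after seeing the data, 1 mitosis gene lay lower and 3 colonocyte and 7 B cell genes lay higher at an unadjusted p below 0.05, against 3, 4 and 10 in edgeR with all libraries. Over all 1428 listed genes the same step gave 356 lower and 385 higher, against 464 and 648. Same-numbered libraries did not deviate together (r of 0.10, -0.06, -0.26 and -0.29 for numbers 1 to 4), and 1 of the 4 numbers gave the best match to itself. With a replicate block in edgeR, the log2 fold changes were -0.46 for Ascl2, -0.52 for Birc5 and -0.41 for Top2a, 2 of the 3 genes stayed below an unadjusted p of 0.05, and Ascl2 had an unadjusted p of 0.0608. The block left the signs of the ratios and of r to Hnf4a as they were (r of -0.80, -0.99 and -0.71, from 4 differences).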
